A study of Mus musculus with 6 samples.

Results

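The Bcl2 family decides whether a cell opens its mitochondria and dies, and 10 of its genes were followed here in trunks of mouse embryos that lack the transcription factor Arid3b. They are the 7 BH3-only death promoters Hrk, Bbc3, Pmaip1, Bcl2l11, Bmf, Bid and Bad and the 3 survival genes Bcl2, Bcl2l1 and Mcl1. Members were chosen with earlier results of these data known. Their probes were found by RefSeq accession without reference to measured values, and the brightest tested probe then stood for each gene. All 10 had at least 1 probe that passed the filter on dim probes, out of 19795 genes tested. RNA came from Arid3b-null embryos (phenotype "Arid3b-null" in the labels) and from wild type embryos, both at embryonic day 9.5 and both as untreated, dissected trunks with the forelimb buds. Each group had 3 arrays and each array held RNA pooled from 4 embryos, so the spread between arrays is a spread between pools. The sources used here do not give how the allele was made, the strain or the somite number of each embryo. Values are log2 signals relative to the array's 75th percentile, and each change is Arid3b-null minus wild type with its standard error.

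In the mitochondrial pathway of apoptosis, the effectors Bax and Bak perforate the outer mitochondrial membrane, and cytochrome c leaks out and activates caspases. Survival proteins such as Bcl2, Bcl-xL (from Bcl2l1) and Mcl1 hold the effectors and the BH3-only proteins in check. BH3-only proteins are the sensors: each answers to its own kinds of stress, some by transcription and some by modification of a protein already present, and they bind survival proteins or activate the effectors directly. Removal of whole cells by this route is a normal part of shaping the neural tube, limb bud and somites.

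Wild type replicate 1 was the brightest array, with a 75th percentile of 844 units, against 611 to 669 on the other arrays. On each array 60.7% to 68.1% of probes were well above background. Arid3b was lower in the Arid3b-null arrays on each of its 3 probes, at 31.0% of the wild type signal on the brightest. The other probes, at 10.6% and 26.9%, were above background on only 2 of 3 Arid3b-null arrays, and the sources used here do not place those probes relative to the deleted part, so what they check is limited. Of all genes tested, 13.6% rose and 12.9% fell at a limma adjusted p below 0.05, 26.6% in all, and in 46.2% every array of 1 group lay above every array of the other. All 11 marker genes of trunk and forelimb bud passed the filter, with 0 that rose and 1 that fell, Meox2 at -0.55 ± 0.13, a call lost when any 1 array other than Arid3b-null replicate 1 or wild type replicate 3 was left out (adjusted p = 0.0662 to 0.0921). The Meox2 call was also lost with no filter on dim probes (0.0959).

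Of the 10 members, 3 rose and 2 fell in Arid3b-null trunks. The risers were Hrk, Pmaip1 and Bbc3, and the fallers were the BH3-only gene Bad and the survival gene Mcl1. The called share was 5 of 10, against 26.6% of all genes tested, and with so few members that is a description and not a test. Among the BH3-only genes 3 rose, 1 fell and 3 did not pass. Among the survival genes 0 rose, 1 fell and 2 did not pass. Arid3b-null and wild type pools did not overlap in 8 of the 10 members, 4 higher and 4 lower in Arid3b-null, against 46.2% of all genes.

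**Figure D1:**
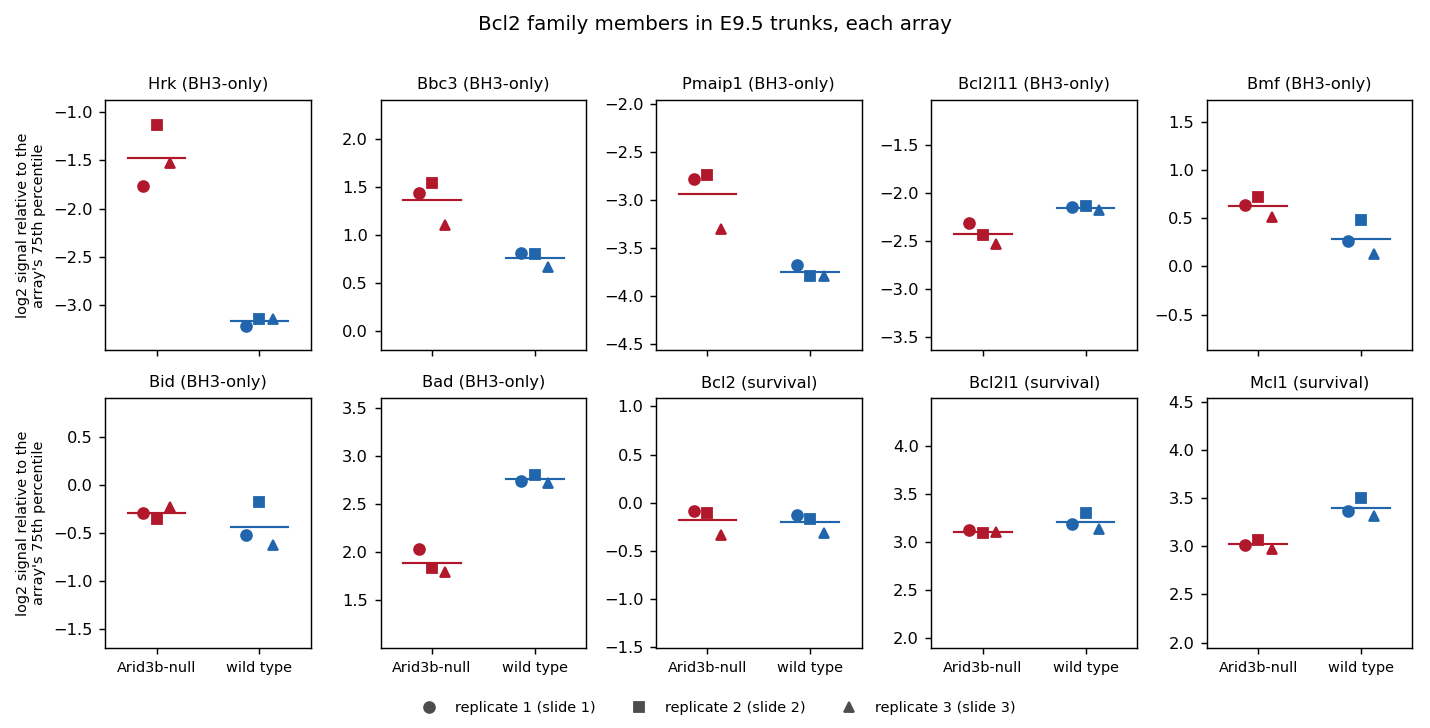
Log2 signal of each member relative to the array's 75th percentile, with 1 point per array, marker shapes for the 3 replicate numbers (each a shared slide), and a bar at the group mean of 3 arrays. Every panel spans the same height in log2 units; Hrk shows the widest gap between the groups, Bad the widest in the other direction, and Bid and Bcl2 overlap.

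Hrk encodes Harakiri, a BH3-only protein known chiefly from neurons, where its transcript is induced when trophic support is withdrawn. It read -1.76, -1.13 and -1.53 in the Arid3b-null pools and -3.22, -3.15 and -3.15 in the wild type pools. All 3 Arid3b-null pools lay above every wild type pool, and the wild type pools were nearly identical while the Arid3b-null pools spread more widely (SD 0.32 against 0.04, n = 3 each). The rise was 1.70 ± 0.17, or 3.24-fold (limma adjusted p = 0.00153). It ranked 190th from the top among all tested genes, and its changes within the 3 slides were 1.45, 2.02 and 1.62. The call held without any 1 array and in every other setting run except a background correction by normexp with each spot's local background, under which no member passed in either direction.

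Markers of early neurons, a known site of Hrk, fell in the same pools. Of 11 tested neuron markers 11 fell and 0 rose, among them Ina at -2.78 ± 0.12, and their summed signal was 2.28 to 2.77 times the 75th percentile in Arid3b-null pools, against 11.5 to 13.9 in wild type pools. Hrk moved in the opposite direction to that list. Among all genes tested 13.6% rose and 12.9% fell. Neural crest markers (3 of 6 rose, 0 fell, summed signal 9.41 to 10.1 against 6.10 to 7.34) and surface epithelium markers (7 of 10 rose, 0 fell, 65.6 to 75.8 against 30.5 to 44.1) moved the same way as Hrk, and the part of any of these lists in its change, or in those of the other members, was not tested. In RNA of whole trunks, fewer cells of a type and less RNA per cell cannot be told apart.

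The upstream sequences of the 2 risers with a RefSeq promoter entry, and of the faller Mcl1, are shown to set risers beside a faller. Each is the 250 bases before a RefSeq transcript start (GRCm38.p6, read 5′ to 3′ on the gene's strand), and capitals mark any match to the 6 motifs searched. Hrk lies at chr5:118169514-118169763 on the + strand, the first and the last of 3 Bbc3 starts at chr7:16309333-16309582 and chr7:16310181-16310430 on the + strand, and Mcl1 at chr3:95658471-95658720 on the + strand.
Hrk: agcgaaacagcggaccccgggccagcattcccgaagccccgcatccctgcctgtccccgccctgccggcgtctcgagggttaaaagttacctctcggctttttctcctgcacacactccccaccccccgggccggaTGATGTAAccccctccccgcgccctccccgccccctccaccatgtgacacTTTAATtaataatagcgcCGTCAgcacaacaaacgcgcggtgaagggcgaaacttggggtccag
Bbc3, first start: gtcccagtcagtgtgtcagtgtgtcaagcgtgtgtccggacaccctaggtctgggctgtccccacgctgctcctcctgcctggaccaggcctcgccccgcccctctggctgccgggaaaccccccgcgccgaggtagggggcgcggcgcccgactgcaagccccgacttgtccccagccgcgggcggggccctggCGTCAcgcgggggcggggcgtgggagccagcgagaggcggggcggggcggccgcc
Bbc3, last start: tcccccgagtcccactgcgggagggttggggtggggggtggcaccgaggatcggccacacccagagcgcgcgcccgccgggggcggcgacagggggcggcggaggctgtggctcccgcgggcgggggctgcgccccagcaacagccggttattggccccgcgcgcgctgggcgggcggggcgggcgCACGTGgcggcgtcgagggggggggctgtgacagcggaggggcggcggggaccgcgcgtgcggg
Mcl1: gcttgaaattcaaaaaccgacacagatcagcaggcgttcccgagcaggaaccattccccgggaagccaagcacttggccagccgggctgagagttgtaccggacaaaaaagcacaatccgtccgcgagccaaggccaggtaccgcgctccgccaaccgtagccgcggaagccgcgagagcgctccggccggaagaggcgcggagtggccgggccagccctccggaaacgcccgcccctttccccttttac

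The motifs were searched on both strands. Each share given is over single windows, so Bbc3, with several windows, had more chances of a match than Mcl1, with a single window. The middle and last Bbc3 windows also overlap. TGATGNAA, the composite site bound by C/EBP and ATF factors, occurred in the Hrk window 114 to 107 bases before the start, and 3.45% of 32851 promoters hold it. TGACG, a partial cyclic AMP response element, occurred on the opposite strand of Hrk at 46 to 42 bases and of the first Bbc3 start at 55 to 51 bases, and also at a Bmf and a Bcl2 start, against 17.8% of promoters. ATTAAA, an AT-rich sequence of the kind ARID3 proteins bind, occurred on the opposite strand of Hrk at 64 to 59 bases, against 12.7% of promoters. ACGTG, the core of the hypoxia response element, was found at the last Bbc3 start on both strands of 1 palindrome, at 64 to 59 bases, where the 2 matches overlap, and 16.6% of promoters hold it. TGTTTAC, a FOXO site, occurred at the middle Bbc3 start and at 1 Bcl2l11 start (3.17% of promoters), and the p53 half-site at 1 Bmf start (7.13%). None of the 6 motifs occurred in the windows of Mcl1, Bad, Bid or Bcl2l1, which says only that these letters are not there. A match is a string of letters and not a measured binding site, and 9 of the 10 members had an entry in the promoter table.

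Pmaip1 encodes Noxa, which binds Mcl1 and is transcribed in response to p53 and, independently of it, to endoplasmic reticulum and amino acid stress. Its probe read -2.78, -2.74 and -3.30 in Arid3b-null and -3.67, -3.79 and -3.79 in wild type. The Arid3b-null pools were all higher, with pool 3 closest to wild type. The rise was 0.81 ± 0.17, or 1.76-fold (limma adjusted p = 0.0162). The call was lost narrowly when Arid3b-null pool 1 (adjusted p = 0.0504) or pool 2 (0.0505) was left out, and with no filter on dim probes (0.0636), where 32530 genes were tested. Background correction by normexp at the median background of each array brought the rise to 0.48, which still passed.

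Bbc3 encodes Puma, a BH3-only protein that binds all the main survival proteins and is a direct target of p53 and of FOXO factors. It read 1.44, 1.54 and 1.11 in Arid3b-null and 0.81, 0.81 and 0.67 in wild type. Again the groups did not overlap and Arid3b-null pool 3 was the lowest of its group. The rise was 0.60 ± 0.14, or 1.52-fold (limma adjusted p = 0.0231). This call is near the threshold: it was lost when any 1 array other than Arid3b-null replicate 3 was left out (adjusted p = 0.0560 to 0.0682) and with no filter on dim probes (0.0868), at changes of 0.51 to 0.63.

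Bad, the BH3-only protein that survival kinases hold inactive by phosphorylation, moved against the other called death promoters. It read 2.04, 1.84 and 1.79 in Arid3b-null and 2.74, 2.81 and 2.72 in wild type. Every Arid3b-null pool was below every wild type pool. The fall was -0.86 ± 0.11, leaving 54.9% of the wild type signal (limma adjusted p = 0.00313), with changes of -0.70, -0.97 and -0.93 within the slides. A dimmer Bad probe fell as well, by 0.60 on the log2 scale (adjusted p = 0.0234 with every probe tested on its own). Like that of Hrk, the Bad call held without any 1 array.

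The other 3 BH3-only genes did not pass the test. Bmf, whose protein is tethered to the dynein light chain and released on loss of attachment, read 0.64, 0.73 and 0.51 in Arid3b-null and 0.26, 0.48 and 0.13 in wild type. The pools did not overlap, yet the change of 0.34 ± 0.13 (1.26-fold) had a limma adjusted p of 0.101. Bcl2l11, which encodes Bim, a strong activator induced by FOXO factors and by loss of growth factors, read -2.31, -2.44 and -2.53 in Arid3b-null and -2.14, -2.14 and -2.17 in wild type. All its Arid3b-null pools were lower, by 0.17, 0.30 and 0.36 on the 3 slides, and the change of -0.28 ± 0.10 did not pass (limma adjusted p = 0.0942). Bid, which links death receptors to mitochondria after cleavage by caspase 8, read -0.29, -0.35 and -0.23 in Arid3b-null and -0.52, -0.18 and -0.62 in wild type, overlapping groups with a change of 0.15 ± 0.14. The 95% intervals were 0.03 to 0.65 for Bmf, -0.53 to -0.03 for Bcl2l11 and -0.19 to 0.48 for Bid. The missed threshold does not show that these transcripts were alike in both groups.

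Mcl1, a short-lived survival protein that binds Noxa and Bim and is required in early development, was the 1 survival gene called. Its brighter probe read 3.01, 3.07 and 2.97 in Arid3b-null and 3.37, 3.50 and 3.32 in wild type. The groups did not overlap on this probe or on the dimmer one, which read 0.36, 0.49 and 0.33 in Arid3b-null and 0.83, 0.74 and 0.70 in wild type. The probes fell by 0.38 and 0.36 on the log2 scale, to 77.0% and 77.9% of the wild type signal, the brighter with a limma adjusted p of 0.0381. With the replicate number, which is also the slide, as a block the same change had an adjusted p of 0.0607. The call was lost as well whichever array was left out (adjusted p = 0.0564 to 0.110), with quantile normalization (0.0669), median scaling (0.107), no filter on dim probes (0.141) and in the deposited value table (0.0589), at changes of -0.42 to -0.29.

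Bcl2, the founding survival gene, read -0.09, -0.11 and -0.34 in Arid3b-null and -0.12, -0.17 and -0.31 in wild type. The groups overlapped, and the change of 0.02 ± 0.12 had a 95% interval of -0.26 to 0.31 (limma adjusted p = 0.902). Bcl2l1, whose long form Bcl-xL protects embryonic neurons and red cells, read 3.13, 3.09 and 3.10 in Arid3b-null and 3.19, 3.30 and 3.13 in wild type on its brighter probe. The groups did not overlap, although the highest Arid3b-null pool and the lowest wild type pool round to the same value, and the change was -0.10 ± 0.10 (95% interval -0.34 to 0.13, limma adjusted p = 0.489). Its dimmer probe went the other way, by 0.37 ± 0.18 (adjusted p = 0.188 with every probe on its own), at -2.79, -2.46 and -2.62 in Arid3b-null and -2.79, -2.81 and -3.36 in wild type. Neither probe passed, and the sources used here do not say which splice forms each one reads.

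**Figure D2:**
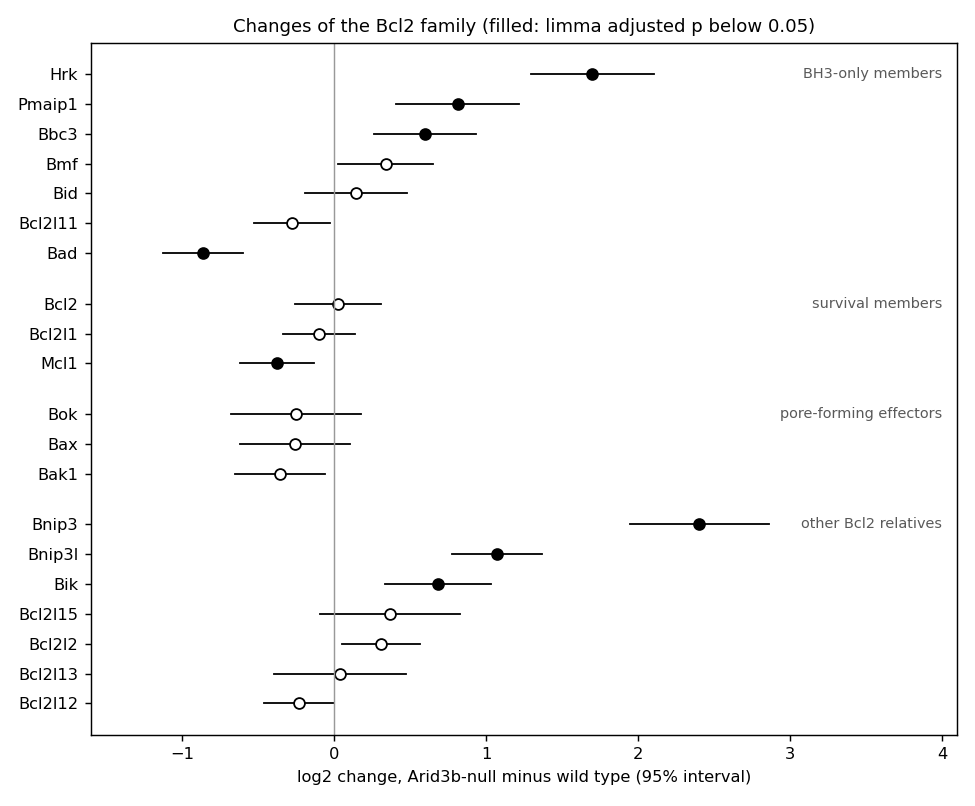
Log2 change (Arid3b-null minus wild type) of each tested Bcl2 family gene with its 95% interval from the limma fit, grouped by role, with filled points for adjusted p below 0.05. Hrk at 1.70 and Bnip3 at 2.40 lie farthest to the right, Bad at -0.86 and Mcl1 at -0.38 are the filled points to the left of 0, and none of the pore-forming effectors is filled.

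Taken by role, the death promoters had a median change of 0.34 and the survival genes one of -0.10, against -0.04 over all genes tested. The difference of the 2 medians was 0.44. Within the slides the death promoter medians were 0.38, 0.25 and 0.39 and the survival gene medians -0.06, -0.21 and -0.04. The medians of the roles therefore differed in the same direction on each slide, but neither role was uniform. Within the death promoters the changes ran between -0.86 for Bad and 1.70 for Hrk, a wider range than lay between the roles. By summed signal both roles were lower in Arid3b-null pools. The death promoters summed to 8.53 to 9.83 in Arid3b-null pools, against 10.3 to 11.4 in wild type pools. The survival genes summed to 17.2 to 17.8 in Arid3b-null pools, against 19.5 to 22.1 in wild type pools. Bad, which fell, read highest of the death promoters, and a sum gives bright genes more weight than a median does. No test was made over the members, which were chosen with results of these data known.

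The effectors that BH3-only proteins act on did not pass in either direction. Of Bax, Bak1 and Bok, 0 rose and 0 fell, with changes of -0.26 ± 0.15, -0.35 ± 0.12 and -0.25 ± 0.18. Bak1, which Mcl1 and Bcl-xL restrain, read 2.58, 2.40 and 2.76 in Arid3b-null and 2.89, 2.99 and 2.93 in wild type, without overlap (limma adjusted p = 0.079). Bax and Bok overlapped between the groups.

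Among 7 tested relatives 3 rose, 0 fell and 4 did not pass, against 13.6% of all genes that rose and 12.9% that fell. Bnip3, a mitochondrial protein with a BH3-like stretch that is induced by hypoxia and promotes mitophagy, read 5.85, 5.94 and 5.45 in Arid3b-null and 3.18, 3.66 and 3.20 in wild type. All Arid3b-null pools stood far above the wild type pools, and the rise was 2.40 ± 0.19, or 5.28-fold (limma adjusted p = 0.000761), with its 3 probes at 2.23 to 2.56. Bnip3l, its close relative Nix, rose 2.10-fold (1.07 ± 0.12) and all its 4 probes rose. Bik, a BH3-only protein of the endoplasmic reticulum that was not among the 10, read -3.26, -3.15 and -3.09 in Arid3b-null and -3.61, -3.86 and -4.09 in wild type. Bik rose 1.61-fold (limma adjusted p = 0.0170), a call lost when Arid3b-null pool 2 (adjusted p = 0.0522) or pool 3 (0.0557) was left out and with no filter on dim probes (0.0686). Its change was 0.40 after normexp at the array's median background, still past the threshold. The survival gene Bcl2l2 (Bcl-w) was at 0.31 ± 0.11 and did not pass (0.0786), nor did Bcl2l12 at -0.23, Bcl2l13 at 0.04 or Bcl2l15 at 0.37.

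**Figure D3:**
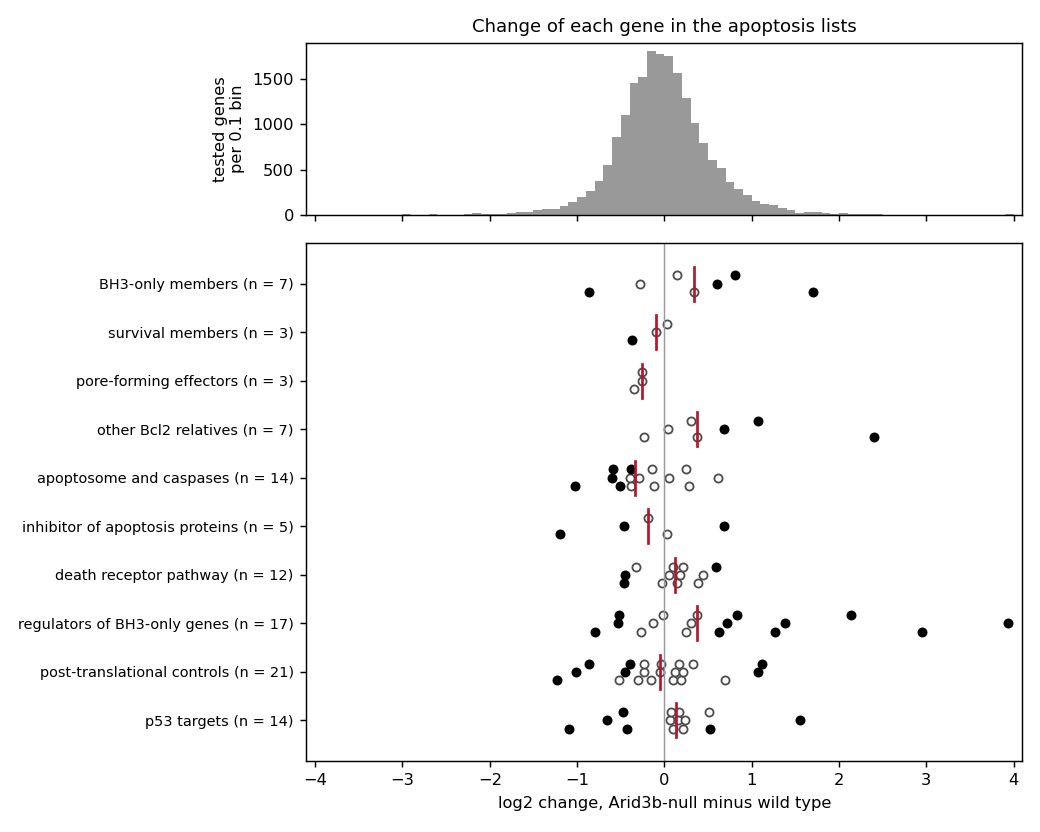
Top, number of tested genes per 0.1 of log2 change, with changes past 4 in either direction placed in the end bins. Bottom, log2 change of each tested gene in 10 lists (filled, limma adjusted p below 0.05; open, not passed; red bar, median of the list); the apoptosome and caspase list has filled points to the left of 0 and none to the right.

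Called genes of the apoptosome and caspase list were lower. Of its 14 genes 0 rose, 5 fell and 9 did not pass, against 12.9% of all genes that fell. The list median was -0.34. Cycs, the cytochrome c gene, which also serves respiration, read 3.81, 3.65 and 3.43 in Arid3b-null and 4.75, 4.51 and 4.70 in wild type and fell 2.03-fold on that probe, its second probe falling too. Aifm1, a mitochondrial flavoprotein released during cell death, fell 1.42-fold. Casp8, the initiator of the death receptor route, fell to 66.5% of its wild type signal. With no filter on dim probes the falls of Casp8 and Aifm1 did not pass (adjusted p = 0.0574 and 0.0644), and Aifm1 was also lost when wild type pool 1 was left out (0.0546).

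The inhibitor of apoptosis genes, whose proteins restrain caspases, moved both ways. Of 5 tested 1 rose, 2 fell and 2 did not pass, against 13.6% of all genes that rose and 12.9% that fell. Birc2 (cIAP1) read -0.87, -0.67 and -0.78 in Arid3b-null and -1.35, -1.38 and -1.64 in wild type, a 1.61-fold rise (limma adjusted p = 0.0102). Birc7 fell 2.29-fold but was dim, above background on 2 of 3 Arid3b-null arrays, and normexp at the array's median background put its change at -0.23 (adjusted p = 0.136). Birc5 (survivin), made in dividing cells, fell 1.38-fold and did not pass in the deposited value table (adjusted p = 0.165), with no filter on dim probes (0.0862) or when Arid3b-null pool 2 (0.0505) or 3 (0.0518) or wild type pool 1 (0.0684) or 2 (0.0592) was left out. Of its other probes 1 fell and 1 did not pass.

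In the death receptor pathway, which feeds into Bid, 1 of 12 tested genes rose, 2 fell and 9 did not pass, a share close to the background. Dapk1, a death-associated kinase, rose by 0.59 ± 0.13. The adaptor gene Fadd fell 1.37-fold and the kinase gene Ripk1 1.37-fold. None of these calls was kept with no filter on dim probes (adjusted p = 0.0725, 0.0867 and 0.111), and Ripk1 did not pass with the replicate block (0.0607). Median scaling ended the calls of Fadd (0.0506) and Ripk1 (0.0709), and normexp at the array's median background put Ripk1 at -0.28 (0.0912). Leaving out 1 array ended the call of Dapk1 for wild type pool 1 (0.0596), of Fadd for Arid3b-null pool 2 or wild type pool 1 or 2 (0.0577 to 0.0807) and of Ripk1 for any array but wild type pool 3 (0.0595 to 0.0824).

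The list of transcription factors that act on BH3-only genes, which also holds the pseudokinase gene Trib3, held the largest rise of the pathway lists, that of Bhlhe40. Of 17 tested 8 rose, 3 fell and 6 did not pass, against 13.6% of all genes that rose and 12.9% that fell, with a list median of 0.37. The list was chosen with earlier results of these data known, so its shares are a description and not a test. Ddit3, which encodes CHOP, a stress factor of the C/EBP family, read -0.07, 0.20 and -0.20 in Arid3b-null and -2.18, -2.13 and -2.18 in wild type, a 4.40-fold rise. Trib3, a target of CHOP that restrains Akt, rose 7.71-fold and Atf3, a stress-induced ATF factor, 2.61-fold. Bhlhe40, a hypoxia-induced repressor, rose 15.2-fold, a change of 3.93 on the log2 scale. These 4 genes rose in the same pools in which Hrk, Pmaip1 and Bbc3 rose, and no link between them was tested.

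A pair of upstream factors was picked out after their values were seen. Trp53, the gene of p53, which transcribes Bbc3 and Pmaip1, read 0.89, 0.56 and 0.51 in Arid3b-null and 1.11, 1.28 and 1.16 in wild type and fell 1.44-fold (limma adjusted p = 0.0306). With the replicate block this fall had an adjusted p of 0.0559, and it was lost when any 1 array other than Arid3b-null pool 1 was left out (0.0673 to 0.0890). It was also lost with no filter on dim probes (0.108). Foxo3, a FOXO factor that transcribes Bbc3 and Bcl2l11, read -3.51, -4.12 and -3.90 in Arid3b-null and -5.00, -5.17 and -5.16 in wild type and rose 2.41-fold (limma adjusted p = 0.00381). Foxo3 is dim, and its change of 1.27 was 0.51 after normexp at the array's median background, still past the threshold. Transcript levels do not measure the activity of either protein. Of 14 tested p53 targets outside the family 2 rose, 4 fell and 8 did not pass, with a median of 0.13. Among all genes 13.6% rose and 12.9% fell, so the share of these targets that rose was near the background. Sesn2, a stress gene of p53 and of the integrated stress response, rose 2.94-fold, whereas Btg2, the phosphatase gene Ppm1d and Trp53inp1 fell 2.13-fold, 1.39-fold and 1.58-fold. Those 3 falls did not pass with no filter on dim probes (adjusted p = 0.0776, 0.0964 and 0.0953). They were also lost when 1 array was left out, Btg2 for any but wild type pool 3 (0.0511 to 0.0751), Ppm1d for any but Arid3b-null pool 2 (0.0598 to 0.0737) and Trp53inp1 for Arid3b-null pool 1 or any wild type pool (0.0611 to 0.0848).

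Genes whose proteins modify or hold the members moved both ways. Of 21 tested 2 rose, 5 fell and 14 did not pass, against 13.6% of all genes that rose and 12.9% that fell, with a list median of -0.05. Pim1, a kinase that phosphorylates Bad, rose 2.17-fold. Dynll1, a dynein light chain gene linked to Bim, fell 1.82-fold. Btrc, part of a ubiquitin ligase that acts on Mcl1 and Bim, fell 2.02-fold. The neuronal kinase gene Mapk10 (JNK3) fell 2.35-fold, with a change of -1.23 that was -0.52 after normexp at the array's median background, in pools where the neuron markers fell. The levels of the proteins and their modification were not measured.

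**Figure D4:**
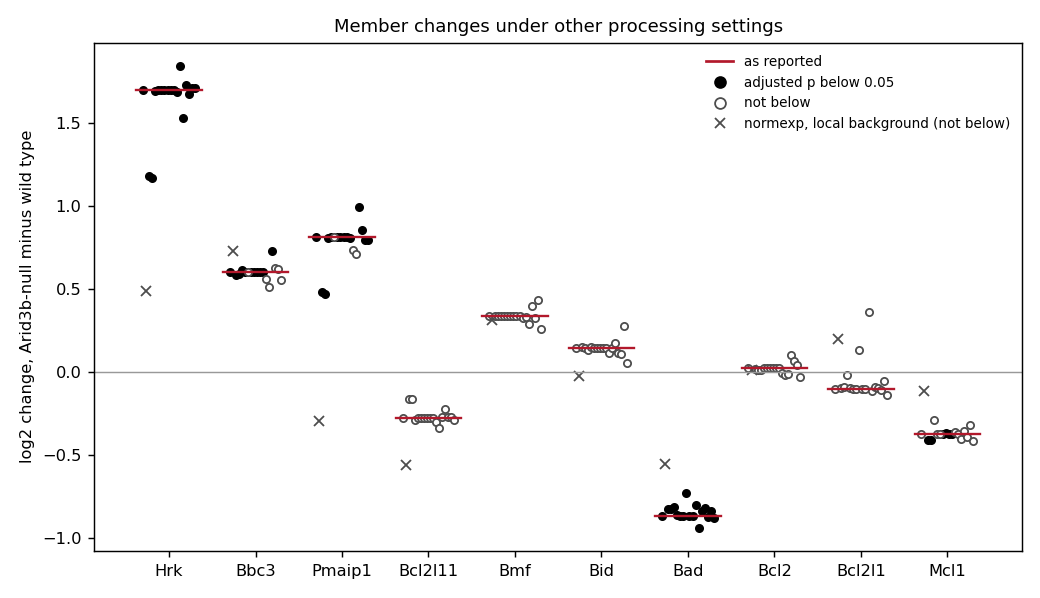
Log2 change (Arid3b-null minus wild type) of each member as reported (red line) and under 18 other settings (points, left to right in a fixed order; filled, adjusted p below 0.05; open, not below; cross, normexp with local background). Hrk and Bad stay filled in all settings but the cross, Pmaip1 and Bbc3 have open points at nearly the same height, and Mcl1 has mostly open points.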

How the data were processed

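The series measured trunk RNA on 6 one-colour Agilent arrays, 3 of Arid3b-null and 3 of wild type pools. The labels' protocols name Cy3 as the dye of the amplified RNA. Per the file headers, spots were read by Agilent Feature Extraction 10.7.3.1 (design 026655, build mm9), and the deposited intensity values are the background-subtracted processed signal and the median signals of spot and local background. The deposited value table holds log2 values for 24181 probes. These correlated with the scanner values at 0.999 to 1.00 per array. Its column medians were 6.77 and its upper quartiles 9.14, so the arrays had been matched, by a method not given in the sources used here. The values were not centred, and the table served as an alternative.

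The main value was log2 of the processed signal minus the array's 75th percentile over 43020 non-control spots. Spots with outlier marks were left out and spots of a probe averaged. Probes not well above background throughout either group of 3 were dropped. Each gene took its brightest tested probe. Of 39429 probes, 26424 matched a symbol by accession in a RefSeq table of GRCm38.p6, used for names. Arid3b-null was compared with wild type over 19795 genes by limma 3.58.1 (lmFit, eBayes; R 4.3.3), two-sided, with Benjamini-Hochberg adjustment at 0.05. The fit was tested on simulated data. The number of arrays limits the precision. Nothing says the pools were of separate litters, so p-values measure the spread between these samples.

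Same-numbered arrays share a slide, per the file headers, and this pairs the samples. Deviations from the group means correlated at 0.16, 0.39 and 0.28 within these pairs, and at -0.35 to 0.12 between arrays of unlike number. The main fit did not use the pairing. With the replicate number as a block 2428 genes rose and 2348 fell. The fit with the replicate block is given where it changes a call.

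Members, lists and tests were chosen with earlier results of these data known. Named are Arid3b, all members, every tested Bcl2 relative, and up to 4 called genes of each other list by adjusted p (of marker lists, up to 3). Promoters are RefSeq sequences of GRCm38.p6. Protein sequences were not used here, and 1 gene that the rule names is not reported here. The alternatives are scaling, background correction, filters, choice of probe, outlier marks, the deposited table, the block and leaving out each array.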

Additional observations from a re-analysis of the deposited data

How the results depend on the processing

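Of 18 other settings, 1 was added after seeing the data. Normexp with each spot's local background, as planned, left 2 genes higher and 0 lower, with 0 members and 0 genes of the wider lists called in either direction, and turned Pmaip1 to -0.30, Bik to -0.45, Foxo3 to -0.49 and the difference between the death promoter and survival gene medians to -0.035. On wild type replicates 2 and 3 a total of 12 spots lay more than 10 units below their local background. With these left out of the fit, the setting added later, 2309 genes rose and 2169 fell, with 3 members higher and 2 lower and a difference of 0.43. With no filter on dim probes, where more genes were tested, 1288 genes rose and 998 fell, 1 member rose (Hrk) and 1 fell (Bad), and 5 wider genes fell. The count of members that fell was also 1 with the replicate block, quantile normalization, median scaling and the deposited value table, where Mcl1 did not pass. The difference between the medians was 0.35 with quantile normalization, 0.31 with probes of a gene averaged and 0.33 in the deposited value table. Leaving out 1 array at a time gave 1660 to 2047 genes that rose and 1205 to 2038 that fell, 1 to 3 members that rose and 1 that fell, 13 to 19 wider genes that rose and 7 to 14 that fell, and a difference of 0.38 to 0.49. Member rises numbered 1 without Arid3b-null replicate 1 or 2. The replicate block ended the calls of Mcl1, Ripk1, Trp53 and Tie1 and of no other named gene. Signal near background limits the dimmer genes: after normexp at the array's median background, Hrk changed by 1.18 and Pmaip1 by 0.48.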

Other observations

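Markers of other cell types that the trunk piece could hold gave further values, to be read beside 13.6% of all genes that rose and 12.9% that fell. Of 10 primitive erythroid markers 0 rose and 3 fell, led by Klf1, the erythroid transcription factor, at -1.45, with a list median of -0.39. Of 8 endothelial markers 1 rose (Tie1, a receptor of vessels, at 0.60) and 0 fell. The Tie1 call was lost with the replicate block (limma adjusted p = 0.0508), with median scaling (0.0551) and with no filter on dim probes (0.0986). It was also lost when Arid3b-null pool 2 or 3 or wild type pool 1 or 3 was left out (0.0707 to 0.0901). Of 5 tested macrophage and myeloid markers 0 rose and 2 fell, Cx3cr1 at -2.96 and Tyrobp at -1.79, which were above background on 1 and 2 of the 3 Arid3b-null arrays. Normexp at the array's median background put Cx3cr1 at -0.55, still past the threshold, and Tyrobp at -0.39, which did not pass (limma adjusted p = 0.0828). Of 4 tested markers of the forebrain and midbrain, outside the dissected piece, 0 rose and 0 fell, and their summed signal was 0.19 to 0.43 times the 75th percentile in Arid3b-null pools and 0.25 to 0.27 in wild type pools.

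Among the 3 Arid3b-null pools, pool 3 was the lowest for 7 of the 10 members, Bbc3, Pmaip1, Bmf, Bcl2, Bad, Bcl2l11 and Mcl1. The share of all genes lowest in pool 3 was not counted. Over all genes tested the median change was 0.03, -0.03 and -0.10 within slides 1, 2 and 3. The array of pool 3 had 60.7% of probes above background, against 66.7% and 65.4% for pools 1 and 2. Pool 3 lay nearest to the wild type mean of the 3 pools for Bbc3, Pmaip1 and Bmf and farthest from it for Bad, Bcl2l11, Bcl2 and Mcl1. Set against each member's wild type mean, the median of the 7 death promoters was 0.35, 0.44 and 0.22 in Arid3b-null pools 1, 2 and 3, against -0.02, 0.04 and -0.04 in the wild type pools. In each Arid3b-null pool that median was the value of Bmf. The median of the 3 survival genes was -0.08, -0.12 and -0.13 in the Arid3b-null pools, against -0.02, 0.09 and -0.08 in the wild type pools.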
